A study of Mus musculus and Homo sapiens with 180 samples.

Results

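MOLM13 cells, a human acute myeloid leukaemia line that carries an MLL fusion, were compared with and without PCGF1 in DMSO, the vehicle of the drugs used elsewhere in the study. The comparison rests on 6 of the 180 samples of the series, chosen by their labels alone. They are 3 libraries of PCGF1 KO cells and 3 of cells with a control guide, all labelled 72 h. Both groups expressed Cas9, had been transduced with a lentiviral guide vector and selected with puromycin, and had received neither inhibitor. The PCGF1 KO libraries all carry the tag of the same guide, and the study's methods describe its edited cells as polyclonal. The study calls the 3 libraries of a group biological replicates without saying how they were separated. The p-values rest on the spread between libraries of a group, estimated jointly over the 27 libraries of the experiment. These include BCOR KO and drug-treated cells.

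PCGF1 belongs to the variant Polycomb repressive complex PRC1.1. In this complex PCGF1 pairs with the ubiquitin ligases RING1 and RNF2, which place ubiquitin on histone H2A, while BCOR or BCORL1 hold the complex together and KDM2B brings it to unmethylated CpG-rich DNA through its CxxC zinc finger. Polycomb complexes are best known for keeping developmental regulators silent in cells that should not express them, and PRC1.1 genes are recurrently mutated in myeloid leukaemia.

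The oligonucleotide list of the study holds 2 guides against human PCGF1, which are shown because they define the knockout. Each matched the human genome (GRCh38) at 1 place, inside PCGF1 on chromosome 2. PCGF1 (ENSG00000115289) lies on the minus strand at chr2:74505043-74507695 and its canonical transcript has 9 exons. The first guide lies in the coding part of exon 3 at chr2:74506835-74506853, on the plus strand, and the second in the coding part of exon 7 at chr2:74505591-74505608, on the minus strand. Coordinates cover the guide, and the capitals mark the adjoining PAM. The tag G2 in the column names was not matched to either entry by the sources used here.
PCGF1 sgRNA1: ggggcagtacttgctagttTGG
PCGF1 sgRNA2: gaggtacgccatctccggAGG

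Expression was measured by 3′ RNA-seq, in which reads come from the ends of transcripts, and is given as CPM, the reads of a gene divided by all reads on genes and scaled to a common total. The 6 libraries held 4377206 to 6196482 reads on genes, at which 3 reads were worth 0.484 to 0.685 CPM in a library. Control replicate 2 stood apart: 48.6% of its reads lay on no gene against 36.3% to 40.7% in the other 5 libraries, and its log-CPM correlation with the other controls was 0.967 against 0.983 between those. Results that depend on this library are given with and without it. The cells carried the markers of their labelled lineage. All 6 defining primary granule genes were detected, with ELANE at 701 to 1204 CPM over the 6 libraries, and CD33 stood at 44.3 to 60.5 CPM, while monocyte and macrophage genes were mixed. ITGB2, AIF1, IRF8 and TYROBP averaged 897, 243, 207 and 205 CPM in controls, CD14 stayed under 0.5 CPM and CD68 had no count. None of the 5 defining erythroid markers had a count in any library, nor did CD3E, CD2, MS4A1, PF4 or HDC, the markers of T cells, B cells, platelets and mast cells.

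PCGF1 mRNA itself was not called changed. It stood at 7.61, 8.4 and 7.17 CPM in the 3 control libraries and at 8.06, 3.36 and 4.71 CPM in the 3 PCGF1 KO libraries, and the groups overlapped (log2 change −0.52 ± 0.27, adjusted p = 0.225). Errors after log2 changes are SE of the fit here and below, and errors after levels are SD of 3 libraries. The adjusted p was 0.0394 without PCGF1 KO replicate 1 (log2 fold change −0.88) and 0.609 without PCGF1 KO replicate 2 (−0.27). Both listed guides cut upstream of the transcript end that 3′ reads sample, so this level does not check the edit.

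Loss of PCGF1 moved genes in both directions, and the largest changes were upwards. Of 12140 genes that reached 2 CPM in 2 or more of the 27 libraries of the experiment, 1011 rose (8.33%) and 659 fell (5.43%) at an adjusted p under 0.05. A fit to the 6 compared libraries alone, with fewer libraries to estimate the spread, called 542 rises and 150 falls. Of the genes named below, those that it did not call had adjusted p of 0.0535 to 0.366 there (ATF4, CBX7, CCNE1, CDKN1A, HOXA10, IKZF1, IRS2, LPXN, NFKBIL1, PCGF5, PTMAP8, RPS3 and SUZ12). The rises were larger. Their median was 1.18 on the log2 scale against 0.61 for the size of the falls, and 573 genes rose by more than 1 log2 unit (4.72%) against 180 that fell by as much (1.48%). The median log2 fold change of all genes tested was −0.02. A gene could pass the filter through the knockout libraries alone, and such a gene had to differ. Among the 11373 genes that passed it in the 9 control libraries of the experiment by themselves, 760 rose (6.68%) and 656 fell (5.77%). In bulk RNA, fewer cells that express a gene and less RNA per cell cannot be told apart. Without control replicate 2, 918 genes rose and 431 fell, of which 806 and 349 were among those called with it.

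**Figure D1:**
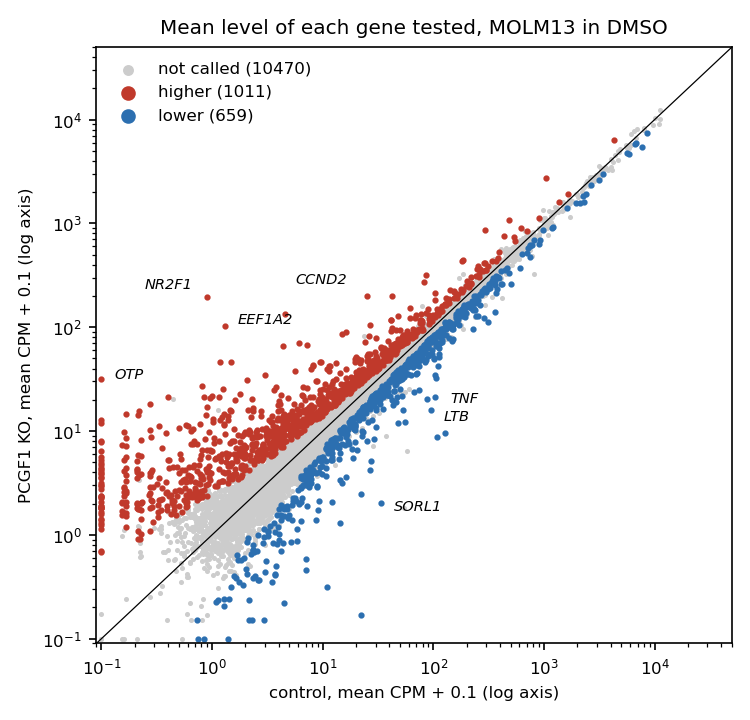
Mean CPM + 0.1 of each of the 12140 genes tested in the 3 control libraries (x) and the 3 PCGF1 KO libraries (y) of MOLM13 cells in DMSO, both on log axes. Red points are the 1011 genes that rose, blue points the 659 that fell and grey points the rest; the red genes farthest from the diagonal lie at the low end of the control axis.

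Of the 10 PRC1.1 subunit genes, all of which were tested, 1 rose and none fell (median log2 fold change 0.09). Over all genes tested 8.33% rose and 5.43% fell, so 1 rise is near the general share. The list counts below stand beside the same shares. The gene that rose was BCORL1, the paralogue of BCOR on the X chromosome (chrX:129981107-130058071). Its level was 6.9, 10.2 and 5.71 CPM in controls and 22.7, 20.8 and 19.8 CPM in PCGF1 KO libraries, without overlap (log2 change 1.49 ± 0.17, adjusted p = 1.4e-07). BCOR, at 52.1 ± 5.97 CPM (mean ± SD, n = 3) in controls and 62.7 ± 4.2 CPM in PCGF1 KO cells, lay just outside the threshold (adjusted p = 0.0527) and passed it without control replicate 1 or 3 or PCGF1 KO replicate 3 (0.0475, 0.0323 and 0.0379). KDM2B was at 89.2 ± 4.32 and 89 ± 9.96 CPM, RING1 at 67.6 ± 7.81 and 83 ± 13 CPM, and RNF2 at 17.9 ± 6.07 and 19.5 ± 3.75 CPM in controls and PCGF1 KO libraries, with adjusted p of 1, 0.114 and 0.728. RING1 passed without control replicate 3 (adjusted p = 0.0428) or PCGF1 KO replicate 2 (0.05, rounded up). The adaptor genes RYBP, YAF2, SKP1 and USP7 had log2 fold changes of −0.06, −0.05, 0.07 and 0.11 and none was called.

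Among 22 tested genes of the other PRC1 complexes 4 rose and none fell, beside 8.33% and 5.43% of all genes tested. CBX6, CBX2 and CBX7 encode chromodomain subunits of canonical PRC1 and PCGF5 the core subunit of another variant complex. CBX6 rose from 263 ± 20.9 to 366 ± 25.5 CPM (log2 change 0.47 ± 0.073, adjusted p = 2.32e-05). CBX2 rose from 10.4 ± 1.47 to 18 ± 2.18 CPM (log2 change 0.79 ± 0.17, adjusted p = 0.00126). The calls of CBX7 (log2 fold change 0.80) and PCGF5 (0.40) were lost without control replicate 2 or 3, with adjusted p of 0.0747 and 0.0535 for CBX7 and 0.088 and 0.128 for PCGF5. Leaving out PCGF1 KO libraries ended them too, replicate 2 for CBX7 (adjusted p = 0.118) and replicate 1 or 3 for PCGF5 (0.116 and 0.0521). Of 12 PRC2 genes tested only SUZ12 was called, at −0.32 on the log2 scale, and it was not called without control replicate 2 (−0.12, adjusted p = 0.426) or without PCGF1 KO replicate 1 or 2 (adjusted p = 0.0641 and 0.203). None of 11 H2A deubiquitinase genes tested was called by edgeR, with 0 under an unadjusted p of 0.05 and 0 called by DESeq2 or limma-voom.

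Developmental transcription factor genes had the largest share of rises among the lists with 7 or more genes tested. Of 236 such genes listed, 234 were in the table, 139 had no read in any of the 6 libraries and 51 were tested, of which 30 rose and 2 fell (CUX2 and DLX2). Their median log2 fold change was 1.39 against −0.02 over all genes. Among the 32 that passed the filter in control libraries alone, 15 rose and 2 fell, with a median of 0.37, a share of rises below the 6 of 12 of the NOTCH pathway by that filter. Those that rose included homeobox genes (DLX3, DLX4, HMX2, MEIS2, OTP, OTX1, TLX1), paired box genes (PAX5, PAX6), basic helix-loop-helix genes (OLIG1, OLIG2, TWIST1), T-box genes (TBX1, TBX3) and the orphan nuclear receptors NR2F1 and NR2F2.

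NR2F1 (ENSG00000175745, chr5:93583222-93594611), which acts in neural and cardiac development, showed the largest rise among genes with more than 3 control reads and at least 10 CPM in PCGF1 KO cells. It was at 1.06, 1.2 and 0.163 CPM in the control libraries and at 194, 207 and 178 CPM in the PCGF1 KO libraries. No PCGF1 KO library came near a control library (log2 change 7.92 ± 0.29, adjusted p = 1.12e-17). OTP, a homeobox gene of the developing hypothalamus (chr5:77628712-77638713), had no read in the control libraries and 27.1, 33.8 and 33.9 CPM in the PCGF1 KO libraries. This was at least 58.9-fold higher, taking 3 counts per control library as the limit. DLX3, known from placenta, tooth and hair development, also had no control read and stood at 12.4, 14.1 and 11.5 CPM, at least 23.6-fold higher. PAX5, which defines the B-cell lineage, had 1 read in all controls and 15.5, 12.5 and 14.9 CPM in PCGF1 KO libraries. Its ratio of 249 had an exact 95% interval of 44.2 to 9865, which covers counting error only. The B-cell markers CD79A and MS4A1 did not accompany PAX5: CD79A stayed at or under 0.62 CPM in all 6 libraries, and MS4A1 had no read.

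TFAP2A rose from 0.707, 0.40 and 1.3 to 16.8, 16.3 and 17.8 CPM and SP9 from 0.177, 0.40 and 0.326 to 18.4, 18.3 and 26.2 CPM, by 4.31 and 6.04 on the log2 scale (SE 0.30 and 0.36; adjusted p = 1.05e-11 and 2.16e-12). OSR2, a zinc finger factor of limb and palate development, was already above the limit of detection in control cells at 4.24, 3.4 and 5.71 CPM and reached 153, 123 and 122 CPM in PCGF1 KO cells (log2 change 4.87 ± 0.38, adjusted p = 1.45e-10). None of these genes had overlapping control and PCGF1 KO libraries. For comparison, 13% of all genes tested were higher in every PCGF1 KO library than in every control library, and 10.7% were lower.

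Few HOX genes had enough reads to be tested, and 3 of the 8 that did rose, against 8.33% of all genes. HOXC10, 1 of the 3, did not pass the filter in controls alone. By that filter 7 were tested, all HOXA genes, and 2 rose, against 6.68% of all genes. Of 11 HOXA genes 7 were tested and 2 rose. HOXA11 went from 16.8, 27.8 and 20.4 to 43.8, 43.6 and 48.2 CPM (log2 change 1.07 ± 0.18, adjusted p = 5.69e-05), although it overlaps the antisense gene HOXA11-AS, and reads of the pair cannot be told apart where strand is not used. HOXA10 was at 28.7, 41.8 and 25.6 and 43.4, 46.8 and 38.8 CPM (log2 change 0.43 ± 0.13, adjusted p = 0.03). Its call was lost without control replicate 1 or 3 or without PCGF1 KO replicate 2 (adjusted p = 0.118, 0.156 and 0.0837), and its log2 fold change was 0.67 without control replicate 2. No HOXB gene passed the filter, and 9 of the 10 had no read. Of 18 HOXC and HOXD genes only HOXC10 was tested. It had no control read and 4.55, 2.91 and 2.99 CPM in PCGF1 KO libraries, at least 6.49-fold higher. HOXA13, MEIS1, SOCS2 and MEF2C, which the study followed as targets of the MLL fusion, were not called by edgeR, with log2 fold changes of 0.52, 0.31, 0.42 and −0.17 and adjusted p of 0.132, 0.303, 0.0819 and 0.245. HOXA13 passed the threshold without PCGF1 KO replicate 2 (0.71, adjusted p = 0.0445) and SOCS2 by limma-voom (0.43, adjusted p = 0.0373).

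The rise was not confined to transcription factors. EEF1A2, a translation elongation factor normally restricted to brain and muscle (ENSG00000101210, chr20:63488013-63499239), had the smallest adjusted p together with CCND2. EEF1A2 was at 1.06, 1.4 and 1.14 CPM in controls and 109, 101 and 100.4 CPM in PCGF1 KO libraries, a ratio of means of 86.1 (log2 change 6.41 ± 0.19, adjusted p = 2.39e-19). CCND2, cyclin D2, which drives entry into S phase (chr12:4269771-4305353), rose from 23.2, 22.4 and 28.7 to 190.5, 208 and 199 CPM (log2 change 3.00 ± 0.092, adjusted p = 2.39e-19). For both genes the libraries of a group lay close together and far from those of the other group. FGFR1, a receptor for fibroblast growth factors (chr8:38400215-38468834), rose from 2.12, 0.60 and 1.47 to 48.2, 49 and 41.3 CPM (log2 change 4.99 ± 0.20, adjusted p = 8e-17). DUSP9, a phosphatase that switches off MAP kinases, rose from 0.884, 0.60 and 0.652 to 27.3, 26.2 and 27.2 CPM (adjusted p = 1.12e-10).

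Further genes with low control levels belonged to several functions. TBC1D4, a regulator of glucose transporter traffic, was at 0.849 ± 0.336 CPM in controls and 20.5 ± 2.9 CPM in PCGF1 KO libraries. RAB11FIP5, of recycling endosomes, was at 0.742 ± 0.486 and 21.3 ± 2.45 CPM, and P3H3, of collagen modification, at 0.234 ± 0.0803 and 11 ± 0.901 CPM. ATP6V1C2, a subunit of the proton pump, and BEX1, a brain-expressed X-linked gene, were also among the 12 largest rises by the same limits on reads and level, with log2 fold changes of 4.58 and 4.58. The protein phosphatase PTPRF, the histone variant H2AJ, the metallothionein MT1L and the long non-coding RNA LINC01305 had 2 or 3 reads in all controls and 18 ± 1.35, 10.1 ± 1.82, 14.3 ± 1.95 and 15.4 ± 2.71 CPM in PCGF1 KO libraries. ATP6V1C2, P3H3, RAB11FIP5, DLL1, ZEB1, TCF7, TFAP2A and HOXC10 overlap another annotated gene, and reads there cannot be assigned where strand is not used. MT1L is nearly identical to other metallothionein genes and its reads may be shared with them. VAT1L, PLEKHO1 and CADM1, also among the 10 genes with the smallest adjusted p, rose by 2.25, 3.54 and 3.94 on the log2 scale. In all, 40 of the 1011 genes had no read and 111 at most 3 reads in the 3 control libraries.

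**Figure D2:**
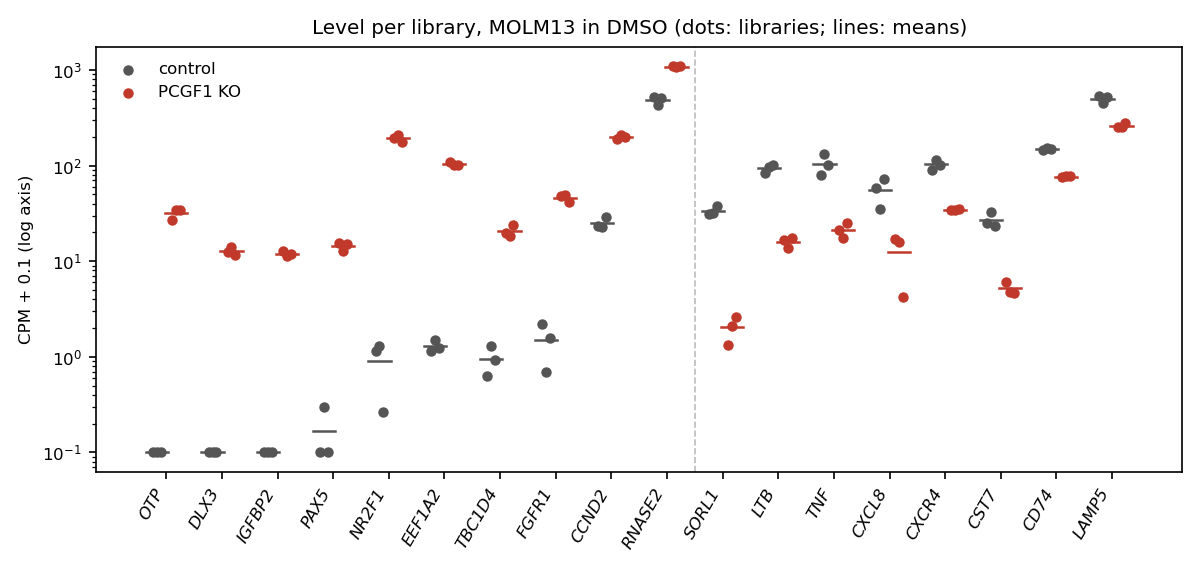
CPM + 0.1 on a log axis for 10 genes that rose (left of the dashed line) and 8 that fell (right), in each of the 3 control (grey) and 3 PCGF1 KO (red) libraries in DMSO; short lines are means. Points at 0.1 are libraries with no read, as in the controls of OTP, DLX3 and IGFBP2, and in none of the 18 genes do the groups overlap.

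Genes of the NOTCH pathway, which signals between touching cells through ligands of the Delta and Jagged families, rose on 6 of 12 tested members, and 2 fell. The ligand DLL1 rose from 3.18, 3.0 and 4.4 to 26.5, 24.8 and 22.9 CPM (log2 change 2.79 ± 0.27, adjusted p = 1.17e-08). JAG2 rose from 18.6, 24.2 and 17.9 to 49.6, 51 and 46.7 CPM and JAG1 from 5.84, 4.4 and 4.08 to 12, 14.5 and 11.9 CPM, by 1.28 and 1.42 on the log2 scale. The rises thus included 3 ligand genes, and the nuclear factor HES6 (0.81), HES7 and the feedback inhibitor NRARP were the others. The 2 falls were the receptor NOTCH2 and the glycosyltransferase MFNG. The list median was 0.93 against −0.02 for all genes.

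Of 50 WNT pathway genes 16 were tested, of which 6 rose and none fell (median 0.36). The ligand WNT7B rose from 5.48, 2.2 and 4.56 to 25, 26.2 and 15.9 CPM (log2 change 2.41 ± 0.25, adjusted p = 2.49e-08). The receptor FZD3 rose from 7.61, 12.8 and 12.4 to 41.6, 34 and 42.6 CPM (log2 change 1.85 ± 0.19, adjusted p = 1.97e-08), and the nuclear effectors TCF7 and TCF7L2 rose by 2.78 and 2.16 on the log2 scale from control means of 0.661 and 1.53 CPM. Only 13 of the 16 passed the filter in controls alone, and 3 of those rose. Of 27 TGF-β and BMP pathway genes tested 7 rose and 2 fell, and of the 20 that passed in controls alone 2 rose and 2 fell. BMP4 rose from 18.9, 20.6 and 18.3 to 55.2, 53.7 and 30.5 CPM, with PCGF1 KO replicate 3 the lowest of its group (log2 change 1.26 ± 0.21, adjusted p = 8.45e-05). The BMP-responsive gene ID1 rose from 1.24, 1.2 and 1.63 to 8.06, 6.26 and 8.17 CPM. ID3 and SMAD5 had no control read and 2.9 ± 1.03 and 3.77 ± 1.69 CPM in PCGF1 KO libraries, at least 5.4 and 7.03-fold higher.

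Of 9 insulin-like growth factor axis and fetal RNA-binding genes tested 3 rose and 1 fell. Of the 8 that passed in controls alone 2 rose and 1 fell. IGFBP2, a binding protein of insulin-like growth factors (chr2:216632828-216664436), had no control read and 12.6, 11.2 and 11.8 CPM in PCGF1 KO libraries, at least 22.1-fold higher. The receptor gene IGF1R rose from 3.18, 2.8 and 1.96 to 14.1, 11.9 and 15.9 CPM (log2 change 2.41 ± 0.21, adjusted p = 1.81e-09), while the adaptor IRS2 rose by 0.27 and lost the call without control replicate 1 or PCGF1 KO replicate 2 (adjusted p = 0.0699 and 0.0645). Of 19 tested CDK inhibitors and G1 cyclins 4 rose and none fell, and of the 17 that passed in controls alone 3 rose. Beside CCND2, the rises among the 19 were CCND1, at 0.424 ± 0.273 CPM in controls and 3.16 ± 1.5 CPM in PCGF1 KO libraries, CCNE1 and CDKN1A. CCNE1 (0.50) and CDKN1A (0.30) lost the call without any of control replicates 1 and 3 and PCGF1 KO replicate 3, with adjusted p of 0.0877 to 0.242 and 0.102 to 0.147, and CCNE1 also without PCGF1 KO replicate 2 (0.0562). The log2 fold change of CDKN1A was 0.47 without control replicate 2. Proliferation genes did not follow the cyclins: of 35 tested none rose and 3 fell (median −0.06), beside 8.33% and 5.43% of all genes. Of 23 apoptosis regulators 3 rose and 1 fell, shares near the 8.33% and 5.43% of all genes. The 3 encode BH3-only proteins, which promote cell death, and others of that kind were not called (BBC3 0.24, BID 0.17, BMF 0.14, BAD −0.19 and PMAIP1 −0.58 on the log2 scale). HRK had 2 control reads and 6.62, 5.15 and 5.19 CPM in PCGF1 KO libraries, and BIK and BCL2L11 rose by 0.59 and 0.53 on the log2 scale. The anti-apoptotic BCL2A1 fell from 4.07, 7.8 and 6.03 to 1.86, 1.79 and 2.04 CPM (log2 change −1.62 ± 0.32, adjusted p = 0.000522).

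Some lists had no call in a direction by edgeR, and other tools gave nearly the same. Among the PRC1.1, PRC2, HOXA and ribosomal protein lists, 0 genes had an unadjusted p under 0.05 in the missing direction and 0 were called by DESeq2 or limma-voom. In the other PRC1, WNT, cyclin and amino acid lists 1 gene had such an unadjusted p, and 2 did among the proliferation genes. DESeq2 called 0 of these and limma-voom 1, a falling gene of the other PRC1 list.

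Myeloid genes moved in both directions, and the counts stand beside 8.33% of all genes tested that rose and 5.43% that fell. Of 15 primary granule genes tested 5 rose and 2 fell (median 0.24), and without control replicate 2 the counts were 8 and 2. RNASE2, the eosinophil-derived neurotoxin of early granulocytes, rose from 523, 430.4 and 508 to 1091, 1073 and 1091 CPM (log2 change 1.15 ± 0.065, adjusted p = 1.73e-13). CFD, complement factor D, rose from 178, 186 and 181 to 434, 441 and 417 CPM (log2 change 1.24 ± 0.069, adjusted p = 1.32e-13). The protease CTSG fell from 118, 137 and 107 to 77.3, 78.5 and 70.4 CPM (log2 change −0.68 ± 0.094, adjusted p = 5.35e-06), and the cystatin CST7 fell from 25.1, 32.8 and 23.3 to 6.0, 4.7 and 4.56 CPM (log2 change −2.41 ± 0.18, adjusted p = 4.05e-11). Of 7 tested secondary and tertiary granule genes 2 rose and 1 fell, and the protease inhibitor SLPI rose from 8.49, 7.0 and 8.64 to 41.6, 39.8 and 46.4 CPM (log2 change 2.40 ± 0.11, adjusted p = 3.77e-15). S100A8 and S100A9 had 3 and 1 reads in all controls and 2.31 ± 0.901 and 1.52 ± 0.42 CPM in PCGF1 KO libraries, ratios of 13.2 and 26.4 with exact 95% intervals of 4.17 to 67 and 4.31 to 1086. The lipid receptor CD36 rose from 0.707, 0 and 2.12 to 9.72, 8.28 and 7.54 CPM.

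Among 27 monocyte and macrophage genes 4 rose and 7 fell (median −0.34). Over all genes tested the shares were 8.33% and 5.43%, which also stand beside the lists that follow here. MS4A6A fell from 143, 159 and 135 to 72.6, 72.3 and 73.8 CPM (log2 change −1.0 ± 0.087, adjusted p = 1.18e-09), the integrin ITGAL from 253, 268 and 272 to 152, 157 and 186 CPM (log2 change −0.68 ± 0.079, adjusted p = 2.53e-07) and the inhibitory receptor LILRB1 fell by 0.96 on the log2 scale. The summed level of the whole list was 2337 to 2461 CPM in controls and 2049.8 to 2055 CPM in PCGF1 KO libraries. Surface antigens of myeloid leukaemia moved both ways, 6 up and 8 down of 25. The adhesion molecule NCAM1 (CD56) rose from 41.6, 41.4 and 40.9 to 96.8, 88.8 and 90.8 CPM (log2 change 1.16 ± 0.093, adjusted p = 2.81e-10). The tetraspanin CD9 rose from 10.1, 6.8 and 17.1 to 49.8, 41.8 and 34.4 CPM and the aminopeptidase ANPEP (CD13) from 0.354, 1.8 and 0.652 to 7.65, 6.71 and 8.17 CPM, by 1.86 and 3.04. Of 32 myeloid transcription factors 6 rose and 4 fell. ZEB1, a repressor known from epithelial-mesenchymal transition, rose from 0.568 ± 0.553 to 7.35 ± 1.05 CPM and ETS1 from 8.78 ± 1.53 to 15.3 ± 1.11 CPM, and ETS2 and IKZF1 had log2 fold changes of −1.01 and −0.41. IKZF1 was not called in the fit to 6 libraries (adjusted p = 0.0917).

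SORL1, a sorting receptor of the VPS10 family (ENSG00000137642, chr11:121452314-121633763), had the largest fall among genes with at least 10 CPM in control cells, more than 3 reads in PCGF1 KO cells and no overlap between the groups. It was at 31, 32 and 37.8 CPM in controls and 1.24, 2.01 and 2.51 CPM in PCGF1 KO libraries, so control cells held 17.5 times as much (log2 change −4.08 ± 0.20, adjusted p = 9.18e-15). SORT1, which belongs to the same family, fell from 8.49, 9.0 and 14 to 4.76, 3.36 and 2.67 CPM (log2 change −1.57 ± 0.24, adjusted p = 1.96e-05).

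The 12 largest falls by these limits included the cytokine genes LTB and TNF and the chemokine gene CXCL8. LTB, lymphotoxin beta (chr6:31580525-31582522), fell from 84.4, 97 and 102 to 16.3, 13.6 and 17.3 CPM (log2 change −2.57 ± 0.14, adjusted p = 1.6e-13). TNF, which lies next to it (chr6:31575565-31578336), fell from 79.1, 133 and 100.4 to 21.1, 17.5 and 25.1 CPM (log2 change −2.28 ± 0.22, adjusted p = 8.79e-09). CXCL8, the neutrophil chemoattractant (chr4:73740519-73743716), fell from 58.4, 34.6 and 72.1 to 17, 15.7 and 4.09 CPM (log2 change −2.23 ± 0.50, adjusted p = 0.00207). The libraries of CXCL8 varied most of these, and PCGF1 KO replicate 3 was the lowest. Of 9 tested chemokines and receptors 3 fell and 2 rose (median −1.08). CXCR4, the receptor that retains cells in bone marrow, fell from 90.4, 115 and 102 to 34.1, 34 and 34.9 CPM (log2 change −1.58 ± 0.09, adjusted p = 2e-13), and CXCR3 fell from 1.66 ± 0.274 to 0.254 ± 0.23 CPM. CXCR2, a receptor for CXCL8 from the granule list, fell by 1.36 on the log2 scale.

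The other large falls were of TIFAB (−2.57), an inhibitor of innate immune signalling, OCSTAMP (−2.35), of osteoclast fusion, the immune receptor CD84 (−2.12), the lysophospholipase ENPP2 (−2.0), TMEM65 (−1.78) and the sulphotransferase CHST2 (−1.78), all without overlap between the groups. CD3D, a subunit of the T-cell receptor complex, fell from 2.83, 5.8 and 6.68 to 0.827, 0.671 and 0.786 CPM, and was the only T or NK cell marker of 3 tested to be called. The summed level of that list was 15.2 to 23 CPM in controls and 11.4 to 13.2 CPM in PCGF1 KO libraries, and CD3E and CD2 had no read. Of 5 MHC class II genes tested edgeR called 2, both lower: CD74, the invariant chain, from 144, 154 and 149 to 75.1, 76.7 and 77.6 CPM (log2 change −0.96 ± 0.08, adjusted p = 5.19e-10), and HLA-DRA from 3.01, 1.4 and 3.26 to 0.207, 0.447 and 0.157 CPM. HLA-DOB was higher by 0.53 with an adjusted p of 0.0546, and DESeq2 called 2 of the 5 lower and 1 higher.

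Genes bound by MLL fusions fell on 5 of 30 tested members and rose on 1 (median −0.03), beside 5.43% and 8.33% of all genes tested. LAMP5, a lysosomal membrane protein, fell from 528, 455 and 519 to 250.2, 253 and 281 CPM (log2 change −0.94 ± 0.074, adjusted p = 1.69e-10). LPXN and EMB, of leukocyte adhesion and membrane transport, fell, with log2 fold changes of −0.70 and −0.53, and LPXN was not called in the fit to 6 libraries (adjusted p = 0.0876). Amino acid response genes fell on 4 of 26 members with none higher, of which ASNS, asparagine synthetase, fell from 109, 122 and 105 to 51.9, 54.1 and 58.3 CPM (log2 change −1.03 ± 0.12, adjusted p = 1.43e-07) and the regulator ATF4 fell by 0.39, with a log2 fold change of −0.22 without control replicate 2 and an adjusted p of 0.173 in the fit to 6 libraries.

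Some falls followed single control libraries. NFKBIL1 was at 14.9, 277 and 30.8 CPM in control, and without control replicate 2 its log2 fold change was −1.43 (adjusted p = 0.29). XAGE1B had 65.3, 0 and 0.326 CPM in controls and was not called without control replicate 1 (−1.22, adjusted p = 0.897) or without any PCGF1 KO replicate (0.0705 to 0.0912). PTMAP8, a pseudogene, had 0.354, 24 and 7.82 CPM and was not called without control replicate 2 (adjusted p = 0.244) or without any PCGF1 KO replicate (0.103 to 0.165). Of 77 cytosolic ribosomal protein genes 11 fell and none rose, and without control replicate 2 only 1 fell. RPS3, for example, was at 6163, 10892 and 5849 CPM in controls and 5589.8, 5663 and 5105 CPM in PCGF1 KO libraries, and its fall of 0.49 on the log2 scale became 0.13 (adjusted p = 0.327) without that library and lost the call without PCGF1 KO replicate 3 (adjusted p = 0.0663). The summed level of the whole ribosomal list was 237633 to 242678 CPM in controls and 218544 to 226471 CPM in PCGF1 KO libraries. Under SGC0946 and VTP50469, each with its own controls, 13 and 13 of the 77 genes fell and none rose. In MV4;11 in DMSO 12 fell and 2 rose.

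The level of the called genes in cells that still had PCGF1 was examined in control libraries of a separate MOLM13 experiment. That table lists some expressed genes, such as LTB and TNF, at 0, and they count here as low. Since a gene silent in controls passes the filter only through libraries in which it is higher, the genes that passed it in controls alone are given first. Of the 738 of them that rose and were found there by symbol, 11.2% lay under 0.5 CPM and 32.0% from 0.5 to 5 CPM, against 7.90% and 16.3% of 10273 tested genes found and 9.98% and 14.6% of 611 that fell. At the other end, 19.5% of those that rose, 39.4% of those that fell and 31.7% of all lay at 50 CPM or above. With every tested gene the share under 0.5 CPM was 26.2% of rises, 9.95% of falls and 10.3% of all, a difference that the filter itself can give. The called genes lay on every chromosome examined, 1 to 22 and X. The share of rises ran from 6.71% on chromosome 18 to 10.6% on chromosome 17, and the median log2 fold change per chromosome stayed between −0.05 and 0.03. A second rising gene started within 100 kb of 22.2% of 998 genes that rose, whereas 15.4% of all 11802 genes placed had such a neighbour. For falling genes the shares were 14.4% of 646 and 9.99%.

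The promoters of genes that rose held more CpG dinucleotides, the sites that the CxxC finger of KDM2B recognises. In the 300 bases from 250 before to 50 after the canonical start (GRCh38), genes that rose had a median of 32 CpG (quartiles 23 and 40, 998 genes), genes that fell 23 (quartiles 9 and 32.8, 646 genes) and all genes tested 27 (quartiles 18 and 35, 11814 genes). At least 20 CpG were present in 79.8%, 59.8% and 71.8% of them. The windows of genes that rose were also richer in C and G, with median C+G shares of 72.3%, 63.2% and 65.3%. The median ratio of observed CpG to that expected from C and G content was 0.849, 0.816 and 0.850. Relative to C+G content, genes that rose thus held no more CpG than all genes tested. The 109 placed genes with at most 3 reads in control cells had a median of 29. Among genes that passed the filter in controls alone the medians were 32, 23 and 27, and without control replicate 2 they were 32 for rises and 25 for falls. These are descriptions of the sequence and not a test of binding.

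The windows of 2 genes that rose and 2 that fell show how far single genes vary, with each CG in capitals. IGFBP2 has 28 CpG (chr2:216633170-216633469, plus strand) and NR2F1 12 (chr5:93582972-93583271, plus strand), both below the median of genes that rose. LTB has 2 (chr6:31582375-31582674, minus strand), while SORL1 has 52 (chr11:121452064-121452363, plus strand) and so goes against the tendency.
IGFBP2: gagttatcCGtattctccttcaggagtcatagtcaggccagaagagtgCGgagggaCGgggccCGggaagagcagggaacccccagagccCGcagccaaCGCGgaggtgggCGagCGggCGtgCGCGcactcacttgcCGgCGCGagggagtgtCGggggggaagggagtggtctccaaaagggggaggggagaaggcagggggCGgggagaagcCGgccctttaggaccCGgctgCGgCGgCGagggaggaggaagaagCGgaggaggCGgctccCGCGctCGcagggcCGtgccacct
NR2F1: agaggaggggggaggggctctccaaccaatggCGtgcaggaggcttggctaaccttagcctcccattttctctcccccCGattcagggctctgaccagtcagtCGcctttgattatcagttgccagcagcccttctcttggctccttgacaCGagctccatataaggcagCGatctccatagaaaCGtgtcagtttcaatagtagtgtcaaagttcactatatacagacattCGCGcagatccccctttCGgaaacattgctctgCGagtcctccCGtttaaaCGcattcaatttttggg
LTB: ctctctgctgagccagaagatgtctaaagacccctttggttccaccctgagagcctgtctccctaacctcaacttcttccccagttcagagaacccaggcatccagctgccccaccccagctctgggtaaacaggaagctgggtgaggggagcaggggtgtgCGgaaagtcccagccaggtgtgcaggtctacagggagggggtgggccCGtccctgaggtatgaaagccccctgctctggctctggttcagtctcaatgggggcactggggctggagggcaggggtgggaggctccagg
SORL1: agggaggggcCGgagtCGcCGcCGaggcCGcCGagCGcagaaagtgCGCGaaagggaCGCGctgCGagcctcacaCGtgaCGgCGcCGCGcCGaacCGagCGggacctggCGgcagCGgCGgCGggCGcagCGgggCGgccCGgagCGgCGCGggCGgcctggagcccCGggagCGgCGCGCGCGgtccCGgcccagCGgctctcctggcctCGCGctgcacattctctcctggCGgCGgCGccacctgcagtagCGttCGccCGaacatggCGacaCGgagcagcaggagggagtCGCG

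PCGF1 KO was compared with control in further MOLM13 libraries that the DMSO comparison did not use, treated with the DOT1L inhibitor SGC0946 (5 μM, 72 h) or the Menin inhibitor VTP50469 (500 nM, 48 h), each with its own controls. These libraries entered the same fit and so shared its estimate of the spread. In SGC0946, where 855 genes rose (7.04%) and 498 fell (4.10%), 594 of the 1011 genes that rose in DMSO rose as well (58.8%, and 69.5% of those that rose in SGC0946) and 6 fell. Of the 659 that fell in DMSO 233 fell (35.4%, and 46.8% of those that fell in SGC0946) and 3 rose. In VTP50469, with 935 rises (7.70%) and 452 falls (3.72%), the numbers were 654 higher (64.7%, and 69.9% of its rises) and 4 lower, and 227 lower (34.4%, and 50.2% of its falls). In sign, 93.9% and 94.5% of the rises and 87.7% and 89.4% of the falls kept their direction. Across the 3 treatments 521 genes rose and 177 fell each time. EEF1A2 stood at 101 and 102 CPM in PCGF1 KO cells under the 2 drugs, against 0.981 and 1.03 CPM in control. SORL1 was higher in both genotypes under the drugs, at 108 and 109 CPM in controls and 16.6 and 17.6 CPM in PCGF1 KO cells, and its difference was smaller than in DMSO by the interaction test (adjusted p = 0.00794 and 0.00594). SORL1 was named for its fall in DMSO, which this test subtracts, so the choice favours a smaller difference under a drug. Over all genes this test called 27 higher (0.222%) and 52 lower (0.428%) for SGC0946, and 23 (0.189%) and 22 (0.181%) for VTP50469.

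MV4;11, a second MLL-rearranged line in which the PCGF1 KO libraries came from a single clone, was examined in DMSO. There 1047 genes rose (9.31%) and 784 fell (6.97%) of 11252 tested. Of 742 genes that rose in MOLM13 and were tested in MV4;11, 241 rose (32.5%, and 23% of its rises) and 53 fell, and of 571 that fell, 96 fell (16.8%, and 12.2% of its falls) and 66 rose. CCND2 rose in MV4;11 from 7.92 to 75.2 CPM (log2 change 3.25 ± 0.17, adjusted p = 5.83e-16), and EEF1A2 and FGFR1 rose by 1.22 and 1.40. LTB, TNF and CXCR4, which fell in MOLM13, had adjusted p of 0.959, 0.547 and 0.805 there.

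A separate MOLM13 experiment compared cells with both PCGF1 and BCOR targeted with control cells in DMSO, in a table that called 122 rises (0.958%) and 33 falls (0.259%) of 12741 genes. Of 849 genes that rose in PCGF1 KO cells and were tested there, 80 rose (9.42%, and 65.6% of its rises) and 3 fell, and of 554 that fell, 12 fell (2.17%, and 36.4% of its falls). Without regard to the threshold 83.6% and 71.3% kept their sign. Genes that rose in PCGF1 KO MOLM13 cells in all 3 treatments, in MV4;11 and in the doubly targeted cells numbered 19, among them EEF1A2, FGFR1, TBC1D4, PLEKHO1, CADM1, JAG1 and HOXC10. In controls and doubly targeted cells SORL1 was at 4.29 and 0.564 CPM (adjusted p = 0.0106).

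Libraries labelled BCOR KO in DMSO were measured against the same control libraries, so the 2 comparisons are not independent and only levels are given. NR2F1 was at 57.3 ± 8.28 CPM in BCOR KO and 193 ± 14.6 CPM in PCGF1 KO libraries. FGFR1 was at 41.9 ± 1.63 and 46.2 ± 4.21 CPM, and CCND2 at 130.1 ± 3.09 and 199 ± 8.92 CPM. OTP and IGFBP2, absent from controls, were at 0.418 and 0.0601 CPM in BCOR KO against 31.6 ± 3.91 and 11.9 ± 0.717 CPM in PCGF1 KO libraries. SORL1 was at 5.47 ± 1.18 and 1.92 ± 0.641 CPM. No test between the knockouts was made.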

How the data were processed

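Gene counts were used as deposited. The authors made raw read counts per gene from 3′ RNA-seq libraries, aligned to GRCh38 and counted by STAR per the study's methods, although the summary lines of the table have the form that htseq-count writes. The strand setting is not given in the sources used here, the labels name mouse as the organism of these MOLM13 samples, and the gene IDs are human. Reads on no gene (36.3% to 48.6%) were left out of library sizes. Gene symbols were matched by ID to GENCODE 44 (97.5% of tested genes), which also gave coordinates.

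Genes that reached 2 CPM in 2 or more of 27 libraries (PCGF1 KO, BCOR KO and control in DMSO, SGC0946 and VTP50469) were fitted together by edgeR 4.0.16 in R 4.3.3, with TMM factors, the quasi-likelihood test and Benjamini-Hochberg adjustment over all genes tested, called under 0.05. Fold changes are log2, errors are SD of 3 libraries or SE of the fit. MV4;11 (18 libraries) and the doubly targeted cells (24 libraries, 96 h in DMSO) were fitted in their own tables, of which 30 and 8 columns were not used. Intervals and limits from 3 counts cover counting error only. On simulated data the fit called 90% of 100 genes changed by 1 log2 unit and 41% of those changed by 0.5, with 4 false calls of 135 over 11843 genes. The changed genes were not drawn from those at low levels, and no outlying library such as control replicate 2 was simulated. These shares therefore do not cover such cases. No libraries were duplicates: counts of a pair differed by 2.96 to 24.1 times the sampling noise (chi-square per degree of freedom).

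The comparison and the gene lists were chosen with earlier results of these data known. Named genes were the PRC1.1 subunits, 5 genes the study followed in untreated MOLM13 cells, the 12 largest called rises and falls (at least 10 CPM in the higher group, over 3 reads in the lower, no overlap), up to 10 called genes with at most 3 reads in a group, up to 4 called genes per list by adjusted p, and the 10 smallest adjusted p. A few genes that this rule names are not reported here. Alternatives were DESeq2 1.42.0, limma-voom (limma 3.58.1), other scaling, filters, samples, thresholds and a replicate block, and leaving out each library.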

Additional observations from a re-analysis of the deposited data

Results flagged for a closer look

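For the genes named above, 31 of the listed differences come from the interaction test, which asks whether the effect of PCGF1 loss differed between a drug and DMSO (edgeR, adjusted p under 0.05). Values are the log2 fold change under the drug minus that in DMSO. Genes named for their change in DMSO were picked by values that this test subtracts, so the choice favours smaller changes under a drug. Of the 1011 genes that rose in DMSO it called 45 lower and 1 higher under SGC0946, and 19 and 7 under VTP50469. Of the 659 that fell it called 12 higher under SGC0946 and 11 under VTP50469, and none lower.

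Several genes that rose in DMSO rose less, or not at all, under SGC0946. The differences were −2.47 for ATP6V1C2, −1.65 for CADM1, −2.16 for TBC1D4, −2.14 for TFAP2A, −0.998 for PLEKHO1 and −0.65 for CCND2. CCND2 differed the other way under VTP50469, by 0.86. Both drugs gave lower values for the granule genes SLPI and RNASE2 and for S100A8 and S100A9. The differences under SGC0946 and VTP50469 were −2.04 and −1.47 for SLPI and −0.60 and −0.90 for RNASE2. For S100A8 they were −4.75 and −4.75, and for S100A9 −6.28 and −5.56. The granule gene CST7, which fell in DMSO, differed the other way, as given below. S100A8 and S100A9 had at most 3 control reads in DMSO, so the size of their fitted values depends on the prior count. IRS2 had differences of −0.62 and −0.66.

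Genes that fell in DMSO fell less under the drugs in 6 cases: SORL1 by 1.38 under SGC0946 and 1.45 under VTP50469, CST7 by 1.28 and 1.05, MS4A6A by 0.54 and 0.57, ENPP2 by 1.41 and ETS2 by 0.97 under SGC0946, and CHST2 by 1.31 under VTP50469. For the MLL fusion targets the PCGF1 KO value relative to control was higher under SGC0946 than in DMSO, by 1.34 for MEIS1, 1.27 for SOCS2, 0.92 for HOXA10 and 0.84 for MEF2C, and by 0.92 for MEF2C under VTP50469.

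In MV4;11 16 of the named genes had every PCGF1 KO clone library on the opposite side of the control libraries from MOLM13, and the difference between the lines was not tested. Genes that rose in MOLM13 had log2 fold changes in MV4;11 of −1.77 for BEX1, −0.30 for CFD, −2.23 for ETS1, −0.44 for H2AJ, −0.55 for IGFBP2, −1.25 for IRS2, −0.73 for RNASE2 and −2.39 for SLPI. Genes that fell in MOLM13 had 1.16 for CD74, 2.38 for HLA-DRA, 0.88 for ETS2, 0.45 for IKZF1, 0.45 for LAMP5, 0.32 for LPXN, 0.87 for MS4A6A and 1.84 for TMEM65. Over all 742 genes that rose in MOLM13 and were tested in MV4;11, 79 separated the opposite way and 258 the same way. Of the 571 that fell, 78 separated the opposite way and 131 the same way.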

How the results depend on the processing

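With 111 named genes and 14 settings, 1458 of 1551 gene and setting pairs kept direction and side of the threshold, 65 lost a call, 11 gained one and 17 changed sign, none of the last on a called gene. The sign changes were of KDM2B (0.00276 with DESeq2 size factors, 0.0399 by library size, 0.00947 without the filter, 0.0107 with 6 libraries, 0.00546 by DESeq2, 0.000325 by limma-voom). Without single libraries KDM2B ran from −0.098 to 0.079, RNF2 from −0.014 to 0.458, RYBP from −0.201 to 0.067, SKP1 from −0.057 to 0.195 and YAF2 from −0.176 to 0.044, each crossing 0.

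Fitting only the 6 DMSO libraries gave 542 rises and 150 falls, with 108 and 103 of the falls shared with SGC0946 and VTP50469, 101 rises and 19 falls with MV4;11, and 144 and 22 with the doubly targeted cells. This fit has fewer libraries to estimate the spread. Scaling by library size alone gave 384 and 37 shared with MV4;11. For the doubly targeted cells DESeq2 gave 132 and 20, and limma-voom 178 and 23; the cause was not tested.

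Leaving out single libraries gave 821 to 1000 rises and 431 to 784 falls. Shared calls ran from 531 to 612 and 177 to 214 for SGC0946, 583 to 642 and 180 to 213 for VTP50469, 195 to 257 and 65 to 133 for MV4;11, and 43 to 79 and 5 to 11 for the doubly targeted cells. There, 43, 44 and 43 shared rises were left without control replicate 1, 2 or 3 and 53 without knockout replicate 3, and 7, 7, 6, 5 and 5 shared falls without control replicate 2 or 3 or knockout replicate 1, 2 or 3. The omissions within the MV4;11 and doubly targeted tables, the lists and promoters without control replicate 2, and levels and promoters by the filter in controls alone, were chosen after seeing the data.

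The fit with a replicate block gave 1129 rises and 865 falls, and 140 and 24 shared with the doubly targeted cells. BCOR and RING1 were called with the block (0.26 and 0.29). Same-numbered libraries deviated together little (correlations 0.031, 0.052 and 0.043), although each correlated best with its own number, so the numbers were not taken as pairs. At this depth a gene under about 3 reads per library cannot be told from absent.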

Other observations

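The counts below stand beside 8.33% of all genes tested that rose and 5.43% that fell. Of 21 interferon response genes 6 rose (CMPK2, HERC5, IFITM2, IFITM3, IRF1 and OAS3) and 2 fell (SAMD9 and TRIM22). Of 22 SOCS and JAK-STAT genes 4 rose and 2 fell, and of 19 integrin and leukocyte adhesion genes 1 rose and 5 fell (CD44, ITGAL, ITGAX, LPXN and SELPLG). Metabolic lists gave 1 rise and 2 falls of 70 respiratory chain genes, 1 and 1 of 23 cholesterol synthesis genes, and 2 and 4 of 30 glycolysis and hypoxia genes (ALDOA, HK2, PGAM1 and PKM fell). Of 21 p53 target genes 1 rose and 2 fell.

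Genes that rose lay together at some loci, given here by the transcription starts on GRCh38. Metallothionein genes MT2A, MT1L, MT1E, MT1M and MT1F rose along chr16:56608584-56657959, genes so alike that their reads cannot always be told apart. RNASE2 and RNASE3 and the pseudogene RNASE2CP, which are alike in sequence, rose along chr14:20891385-20955487. EFNA4, EFNA3, TRIM46 and MUC1 rose along chr1:155063740-155192915, and TBC1D4, COMMD6 and LMO7 along chr13:75482169-75636330.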
